A study of Mus musculus with 6 samples.

Results

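The PARP family was followed across cultured mouse embryonic fibroblasts of 3 mutant genotypes. Its 10 measured members were chosen by gene symbol in the platform annotation: Parp1, Parp2, Parp3, Parp4, Parp6, Parp8, Parp9, Parp12, Parp14 and the tankyrase Tnks. They were covered by 13 spots and made up 10 of the 16504 named genes on the array. A further spot assigned to both Rpph1 and Parp2 was not used. Because 2 of the genotypes lack PARP-1, the 9 other genes, called the paralogues here, were judged without Parp1, and the interferon-inducible Parp9, Parp12 and Parp14 were kept apart from Parp2 and Parp3.

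All cells came from embryos of 15.5 days on a mixed 129/Sv-Black Swiss background, and cytoplasmic RNA was taken at passage 2. In the Wrn mutant, part of the helicase region of the RecQ helicase Wrn is deleted in frame, the PARP-1 null lacks poly(ADP-ribose) polymerase 1, and the double mutant (PARP-1 null/Wrn mutant) combines both. Each was hybridised on 2 arrays, a first and a duplicate, against wild-type RNA. An RNA pool held the cells of 3 littermate embryos, so single animals were not measured, and the labels do not say whether a duplicate array held the pool of the other litter. The p-values therefore measure the spread between arrays, which may be technical. The duplicate double-mutant array is named double mutant in its title and source, but the strain entry of that channel says wild type. For the main results that rest on this array, the value without it is also given.

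Values are log2 ratios of mutant to wild type, so that 0 means equal signal and -1 a 2-fold lower one. The direction is likely rather than certain: it was taken from Parp1 itself, which lay far below 0 on the arrays of the PARP-1 null and the double mutant alone, whereas the stated dyes (wild type Cy5, mutant Cy3) with the usual Cy5 over Cy3 would give the opposite. If the sign were turned, every direction below would be mirrored. Dyes were not swapped and the wild type had no array of its own, so a dye bias of a probe stays in each ratio to wild type, and the 3 comparisons with wild type share that partner. Such a bias cancels in a difference between 2 mutants. The median of all spots was 0 on each array, and log ratios of different arrays correlated at 0.606 to 0.847 across spots, which are not independent replicates. Both ends of that range are pairs of different genotypes. The 2 arrays of a genotype correlated at 0.759 (Wrn mutant), 0.752 (PARP-1 null) and 0.802 (double mutant), so they were not set apart from the other pairs. Ratios show neither absolute levels nor the number of cells, so fewer cells of a type and less RNA per cell cannot be told apart.

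PARPs transfer ADP-ribose from NAD+ to proteins or nucleic acids. PARP1, PARP2 and PARP3 are switched on by DNA breaks. PARP1 and PARP2 build poly(ADP-ribose) chains that recruit repair factors such as XRCC1, and PARP1 makes most of that polymer in damaged cells. Most other members add single ADP-ribose units, and several of them are interferon-inducible and act in antiviral defence. In the whole-table limma fit used below, a gene passed at a Benjamini-Hochberg adjusted p under 0.05 over all 20679 features.

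Parp1 was near wild type in the Wrn mutant and far below it in both genotypes without PARP-1. The log2 ratio was -0.12 and -0.31 on the Wrn mutant arrays, -2.61 and -2.30 on the PARP-1 null arrays and -2.97 and -2.59 on the double-mutant arrays. The 4 arrays without PARP-1 lay well below both Wrn mutant arrays, and the duplicate double-mutant array, whose strain entry says wild type, was among the low ones. The Wrn mutant mean was -0.22 ± 0.13 (SD, n = 2), the PARP-1 null mean -2.45 ± 0.22 and the double-mutant mean -2.78 ± 0.27. The signal of the PARP-1 null was thus 5.48-fold lower than wild type and that of the double mutant 6.87-fold lower (adjusted p = 0.0104 in each), while the Wrn mutant did not pass (adjusted p = 0.420). Over all features, 3.36% passed for the Wrn mutant, 7.95% for the PARP-1 null and 18.3% for the double mutant (3794 features, or 261 without the duplicate double-mutant array). Since Parp1 set the direction of the ratio, its sign is a check of the labels and not a finding. The position of the probe relative to the disrupted part of the gene is unknown here, so the remaining signal has no reading as residual transcript.

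Among the 16504 named genes, ordered from the lowest mean log2 ratio, Parp1 ranked 65 for the PARP-1 null, 71 for the double mutant and 4876 for the Wrn mutant. Among all 20679 features, which include spots without a symbol, the ranks were 550, 552 and 6320. Named genes with a still lower mean were thus present in both genotypes without PARP-1. The call rested on 2 arrays a genotype: without the duplicate PARP-1 null array the mean was -2.61 with an adjusted p of 0.0877, and without the first it was -2.30 with an adjusted p of 0.0511. Without the duplicate double-mutant array the mean was -2.97 (adjusted p = 0.0513), and without the first it was -2.59 (adjusted p = 0.0714). The double mutant was lower than the PARP-1 null by a log2 difference of -0.33 (95% interval -0.89 to 0.24, adjusted p = 0.772), a difference that took the other sign when arrays were scaled to equal spread (0.22) or quantile-normalised (0.057).

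The genes whose 6 array values lay closest to those of Parp1 were Frmd4b, Zic4 and Samd4, out of 11845 named genes without an exact 0. Their root mean square differences from Parp1 on the log2 scale were 0.227, 0.292 and 0.293. Frmd4b, a FERM-domain scaffold gene, had log2 ratios of -0.35 and -0.37 on the Wrn mutant arrays, -2.58 and -1.99 on the PARP-1 null arrays and -2.87 and -2.20 on the double-mutant arrays.

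**Figure D1:**
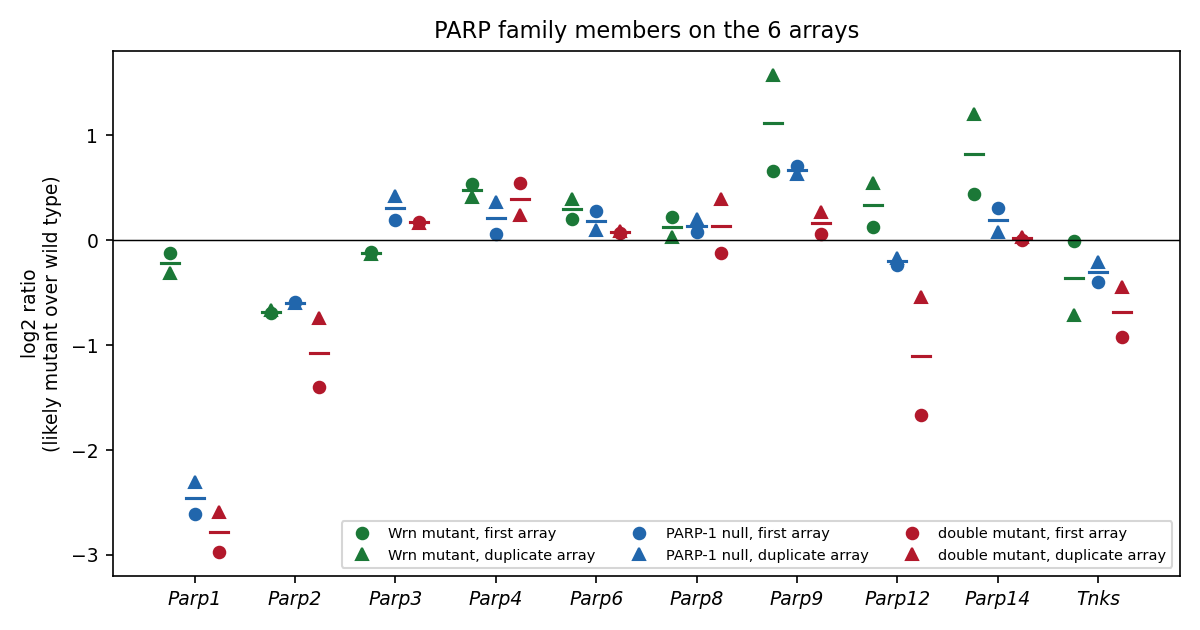
Log2 ratio to wild type (axis) of each of the 10 members, 1 point per array (circle first, triangle duplicate, colour by genotype), with short bars at genotype means and a line at 0. Parp1 lies between -2.97 and -2.30 on the 4 arrays without PARP-1 and near 0 on the Wrn mutant arrays, and the paralogues lie between -1.66 and 1.58.

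With Parp1 left out, 1 of the 9 paralogues passed for the double mutant (Parp2), and none passed for either single mutant. Over all features 3.36% passed for the Wrn mutant, 7.95% for the PARP-1 null and 18.3% for the double mutant, so these counts are no result about the family. At an unadjusted p under 0.05 the counts were 5, 2 and 4 of 9, against 23.6%, 27.6% and 35.9% of all features. A mean at least 2-fold from wild type was seen for Parp9 alone in the Wrn mutant and for Parp2 and Parp12, 2 of 9, in the double mutant, and for no paralogue in the PARP-1 null. Over all features that size was reached by 10.3%, 14.3% and 18.6%. The median log2 ratio of the 9 was 0.30, 0.19 and 0.079, where the median of all features was 0. Across the 6 arrays the median range of a paralogue was 0.81, against 0.90 for all features. None of the 9 transcripts was called higher in cells with little Parp1 signal in the whole-table limma fit of the ratios as deposited. Parp3 was called higher in the PARP-1 null after quantile normalisation (0.31, adjusted p = 0.0413).

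**Figure D2:**
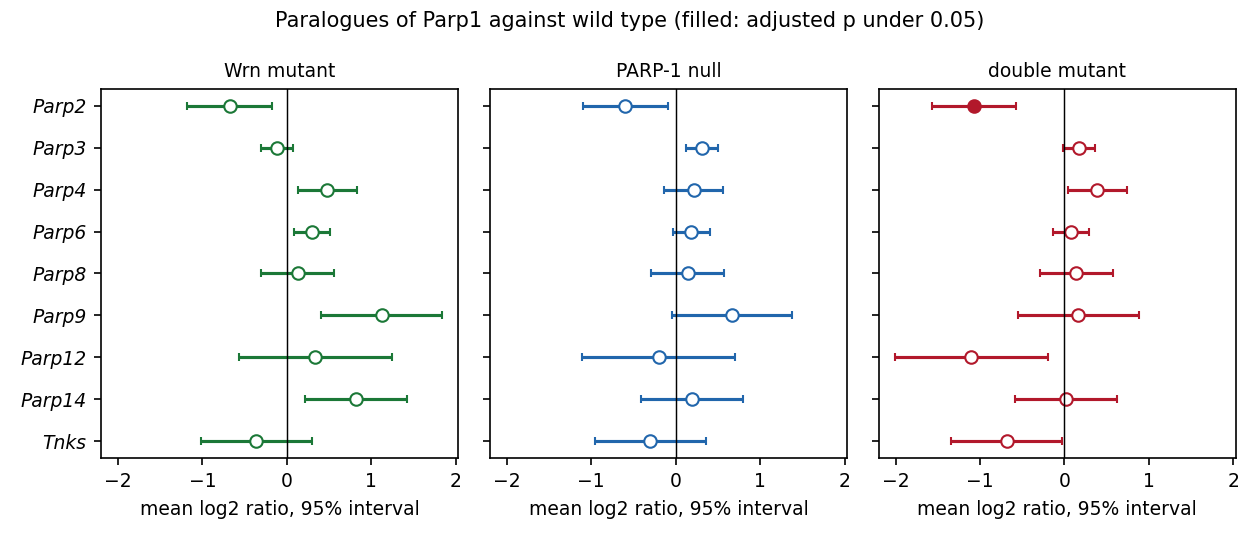
Mean log2 ratio to wild type (axis) of the 9 paralogues in each genotype, with 95% intervals from the limma fit (bars, not adjusted for the number of features) and a line at 0. A filled point, Parp2 in the double mutant, passed. Parp2 lies below 0 in all 3 genotypes, and Parp9 is at 1.12 in the Wrn mutant against 0.16 in the double mutant.

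Parp2, the closest functional partner of Parp1 in strand-break repair, was below wild type on every array. Its log2 ratio was -0.70 and -0.66 on the Wrn mutant arrays, -0.59 and -0.60 on the PARP-1 null arrays and -1.40 and -0.74 on the double-mutant arrays. The 4 single-mutant arrays lay close together, the duplicate double-mutant array just below them, and the first double-mutant array alone far lower. Means were -0.68 ± 0.025 (SD, n = 2), -0.59 ± 0.0087 and -1.07 ± 0.47. Parp2 passed for the double mutant (adjusted p = 0.0360) but not for the Wrn mutant (adjusted p = 0.140) or the PARP-1 null (adjusted p = 0.138). It did pass for the Wrn mutant after quantile normalisation (adjusted p = 0.0361), and for the PARP-1 null when either double-mutant array was left out (adjusted p = 0.0467). No difference between genotypes passed for Parp2, so the call in the double mutant alone does not set that genotype apart. In the double mutant the call was kept in 7 of 15 alternatives and lost in 8, with adjusted p between 0.0107 and 0.282. Without the first double-mutant array the mean was -0.74 (adjusted p = 0.0707), and without the duplicate it was -1.40 (adjusted p = 0.0345).

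A negative value on all 6 arrays was shared by Parp1, Parp2 and the spot average of Tnks, and was found for 17.1% of all features. The genes nearest to Parp2 over the 6 arrays were Tmem181a, Nsmce3 and Fkbp2, at root mean square differences of 0.0911, 0.104 and 0.107. Nsmce3 encodes a subunit of the SMC5/6 complex, which acts in DNA repair. Its log2 ratios were -0.58 and -0.61 on the Wrn mutant arrays, -0.56 and -0.42 on the PARP-1 null arrays and -1.48 and -0.65 on the double-mutant arrays.

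Parp3, a break-activated enzyme that mainly adds single ADP-ribose units and acts in end joining, was higher in both genotypes without PARP-1 than in the Wrn mutant. Its log2 ratio was -0.11 and -0.13 on the Wrn mutant arrays, 0.19 and 0.42 on the PARP-1 null arrays and 0.18 and 0.16 on the double-mutant arrays. All 4 arrays without PARP-1 lay above 0. They also lay above both Wrn mutant arrays, which was seen for 1 of 9 paralogues and for 11.7% of all features. Means were -0.12 ± 0.0092 (SD, n = 2), 0.31 ± 0.16 and 0.17 ± 0.013, and none passed against wild type (adjusted p = 0.362, 0.0828 and 0.170). The PARP-1 null value passed after quantile normalisation (0.31, adjusted p = 0.0413) and without the first PARP-1 null array (0.42, adjusted p = 0.0492). The difference from the Wrn mutant was 0.43 for the PARP-1 null (95% interval 0.16 to 0.70, adjusted p = 0.405) and 0.29 for the double mutant (0.022 to 0.56, adjusted p = 0.331). These intervals are those of single contrasts, and neither difference passed over all features.

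**Figure D3:**
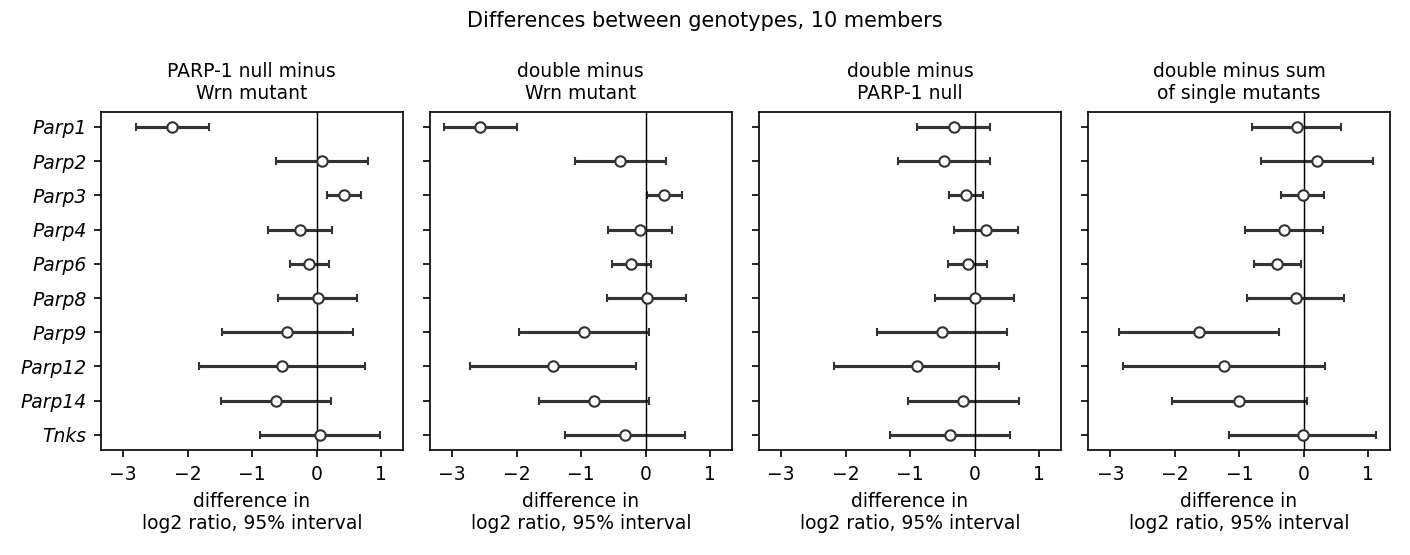
Log2 differences between genotypes (axis) for the 10 members, 1 panel per contrast, with 95% intervals from the limma fit (bars) and a line at 0. Parp1 of the PARP-1 null differs from the Wrn mutant by -2.24 and that of the double mutant by -2.56, and Parp12 has the lowest paralogue value of the double mutant against the Wrn mutant, -1.44.

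Parp9, Parp12 and Parp14 are interferon-inducible in mouse and human cells. PARP9 pairs with the ubiquitin ligase DTX3L, PARP12 is an antiviral mono-ADP-ribosyltransferase, and PARP14 is a macrodomain enzyme first studied as a coactivator of STAT6. In RefSeq, Parp9 and Parp14 lie on mouse chromosome 16 with 1 protein-coding gene between them, Dtx3l, which was not measured. Averaged over the spots of a gene, all 3 were higher in the Wrn mutant than in the double mutant without overlap of the arrays, but 1 of the 2 Parp14 spots overlapped. No value of the trio passed in the whole-table limma fit of the ratios as deposited.

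Parp9 had log2 ratios of 0.66 and 1.58 on the Wrn mutant arrays, 0.71 and 0.63 on the PARP-1 null arrays and 0.057 and 0.27 on the double-mutant arrays. It lay above 0 on every array, with both double-mutant arrays below the other 4 and the duplicate Wrn mutant array far above the rest. Means were 1.12 ± 0.65 (SD, n = 2), 0.67 ± 0.057 and 0.16 ± 0.15 (adjusted p = 0.113, 0.201 and 0.787). Without the first Wrn mutant array the Wrn mutant value rested on the duplicate alone, at 1.58, and passed (adjusted p = 0.0346). It also passed when only features without an exact 0 were tested (adjusted p = 0.0352).

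Parp12 had log2 ratios of 0.13 and 0.54 on the Wrn mutant arrays, -0.23 and -0.17 on the PARP-1 null arrays and -1.66 and -0.54 on the double-mutant arrays. The genotypes did not overlap, and both double-mutant arrays were the lowest. Means were 0.33 ± 0.29 (SD, n = 2), -0.20 ± 0.046 and -1.10 ± 0.79 (adjusted p = 0.595, 0.798 and 0.0963). Without the duplicate double-mutant array the double-mutant value was -1.66 (adjusted p = 0.0654). The double-mutant value of -1.10 passed when exact zeros were set to missing (adjusted p = 0.0345) and when only features without an exact 0 were tested (adjusted p = 0.0263).

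Parp14 had log2 ratios of 0.44 and 1.21 on the Wrn mutant arrays, 0.31 and 0.080 on the PARP-1 null arrays and 0.0065 and 0.030 on the double-mutant arrays. These are averages of 2 spots, on which the genotypes did not overlap and the double mutant was near 0. On each spot alone the PARP-1 null and double-mutant arrays overlapped, and on spot 2 the Wrn mutant and double-mutant arrays did too. Means were 0.82 ± 0.54 (SD, n = 2), 0.19 ± 0.16 and 0.018 ± 0.017 (adjusted p = 0.138, 0.646 and 1.00). The double-mutant mean was -0.0041 after quantile normalisation. Without the first Wrn mutant array, the Wrn mutant value of 1.21 from the duplicate alone passed (adjusted p = 0.0495).

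Means ran from high to low in the order Wrn mutant, PARP-1 null, double mutant for Parp6, Parp9, Parp12 and Parp14, 4 of 9 paralogues, against 15.3% of all features. No other order was counted and this one was not planned, so the count is a description and not a test. Arrays of the 3 genotypes were fully apart for Parp12 and for the spot average of Parp14, though for neither of its single spots, while for Parp9 and Parp6 the single mutants overlapped. Averaged over the trio, the log2 ratio was 0.41 and 1.11 on the Wrn mutant arrays, 0.26 and 0.18 on the PARP-1 null arrays and -0.53 and -0.080 on the double-mutant arrays. The same mean over Parp2 and Parp3 was -0.41 and -0.39, -0.20 and -0.089, and -0.61 and -0.29, with the double-mutant arrays overlapping the Wrn mutant ones. Against the Wrn mutant, the double mutant was lower by a log2 difference of -0.96 for Parp9 (95% interval -1.97 to 0.054, adjusted p = 0.377), -1.44 for Parp12 (-2.72 to -0.16, adjusted p = 0.323) and -0.81 for Parp14 (-1.66 to 0.048, adjusted p = 0.378). These 3 differences passed in none of the 15 alternatives. They stayed negative in each, but the sign could hardly change. Most alternatives keep the array values, and the averaged arrays of these genotypes did not overlap. Without the duplicate double-mutant array the differences were -1.07, -1.9996 and -0.82. Without the duplicate Wrn mutant array, which was the highest for all 3, the PARP-1 null no longer lay below the Wrn mutant for Parp9 (difference 0.0042).

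**Figure D4:**
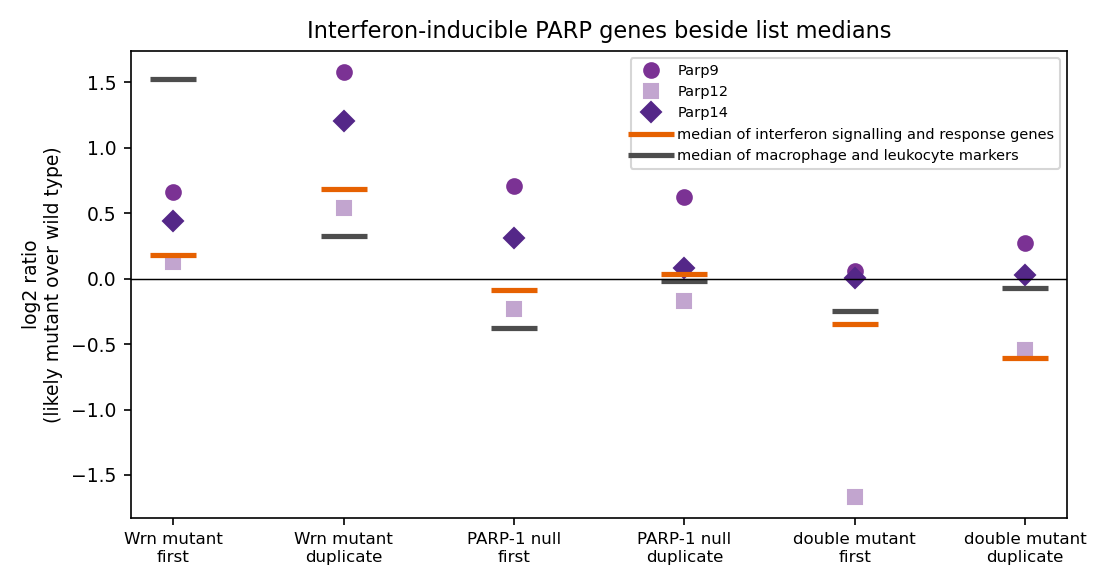
Log2 ratio to wild type (axis) of Parp9, Parp12 and Parp14 (points) on each of the 6 arrays, beside the array medians of the interferon and the macrophage lists (bars). The interferon list runs from 0.68 on the duplicate Wrn mutant array to -0.61 on the duplicate double-mutant array, and the macrophage list is at 1.53 on the first Wrn mutant array.

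The wider interferon list had array medians in the same order of genotypes. Of its 41 symbols, which hold an old and a new name of the same gene, 35 were measured, none of them a member of the family group described here. The list median was 0.18 and 0.68 on the Wrn mutant arrays, -0.087 and 0.038 on the PARP-1 null arrays and -0.35 and -0.61 on the double-mutant arrays, and 19, 25, 15, 18, 10 and 3 of 35 genes were above 0. Of the 35, 1 passed as higher and none as lower for the Wrn mutant, 1 and 3 for the PARP-1 null and 1 and 5 for the double mutant. These counts were near the shares of all features that passed (3.36%, 7.95% and 18.3%), so they are no result about the list. They also moved with the processing: the double mutant had 1 higher and 1 lower with scaling, 2 and 1 with quantile normalisation and 1 and 12 with exact zeros set to missing, and the Wrn mutant had 8 and 0 when only features without an exact 0 were tested. The guanylate-binding protein gene Gbp2 was higher in all 3 genotypes, with means of 1.61 ± 0.062, 1.79 ± 0.16 and 1.98 ± 0.21 (SD, n = 2). In the double mutant the interferon regulatory factor gene Irf7 (-2.05), the peptide transporter gene Tap1 (-1.48), the antiviral gene Rsad2 (-1.46), the immunoproteasome gene Psmb9 (-1.20) and the antiviral gene Ifit2 (-1.09) fell. Rsad2 (-1.90), Tap1 (-0.82) and the RNA-editing gene Adar (-0.73) fell in the PARP-1 null. No gene of the list passed in a contrast of genotypes. The list median of the double mutant was -0.35 without its duplicate array and -0.61 without the first. Its calls were lost when either of these arrays was left out, and most of them also when a PARP-1 null array was.

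Macrophage and leukocyte markers also had their highest array medians in the Wrn mutant. Of the 10 listed 8 were measured, and none passed. Their median was 1.53 and 0.32 on the Wrn mutant arrays, -0.37 and -0.020 on the PARP-1 null arrays and -0.25 and -0.070 on the double-mutant arrays. On the Wrn mutant arrays 8 and 6 of 8 markers were above 0, against 2 and 4 in the PARP-1 null and 4 and 4 in the double mutant. The highest array for these markers was the first Wrn mutant array, while for Parp9, Parp12 and Parp14 it was the duplicate. Their part in the result was not tested. Of 10 fibroblast markers, all measured, 1 passed for the PARP-1 null and 2 for the double mutant, near the 7.95% and 18.3% of all features. Vim rose in the PARP-1 null (2.05 ± 0.36) and the double mutant (2.51 ± 0.63), and S100a4 in the double mutant (1.71 ± 0.37). Vim was also above 0 on the Wrn mutant arrays (1.495 and 1.514) without passing in the limma fit (adjusted p = 0.0856). S100a4 was below 0 on those arrays (-0.94 and -0.47). No fibroblast marker passed in a contrast of genotypes. On the first double-mutant array alone Vim was at 2.06 and S100a4 at 1.45, and leaving out any array lost both calls there. Other markers had means below 0 in the double mutant without passing, namely Fn1 (-1.64 ± 2.14), Pdgfra (-0.070) and Col3a1 (-0.031). The median of the fibroblast list was -0.11 and 1.21 (Wrn mutant arrays), 0.83 and 1.02 (PARP-1 null) and 0.51 and 0.94 (double mutant). Above 0 were 5 and 7, 9 and 10, and 7 and 9 of its 10 markers. As ratios give no level, the fibroblast label itself could not be checked.

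Promoter windows from RefSeq (GRCm38.p6) were at hand for 7 of the 10 members, not for Parp9, Parp14 or Tnks. They run from 250 bases before to 50 bases after a gene's start. They were searched on both strands for the interferon-stimulated response element core GAAANNGAAA, the gamma-activated site core TTCNNNGAA and the GC box GGGCGG. Shown are Parp2, the paralogue that passed, Parp4, which alone held the response element, and Parp12, the interferon-inducible member with a window. Capitals mark the response element.
Parp2, chr14:50807666-50807965, plus strand: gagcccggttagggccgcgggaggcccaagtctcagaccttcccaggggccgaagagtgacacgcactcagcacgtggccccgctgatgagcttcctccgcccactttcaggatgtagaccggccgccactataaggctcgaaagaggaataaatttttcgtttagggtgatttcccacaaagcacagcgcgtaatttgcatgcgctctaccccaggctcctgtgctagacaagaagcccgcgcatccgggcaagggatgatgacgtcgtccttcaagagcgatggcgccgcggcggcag
Parp4, chr14:56575369-56575668, plus strand: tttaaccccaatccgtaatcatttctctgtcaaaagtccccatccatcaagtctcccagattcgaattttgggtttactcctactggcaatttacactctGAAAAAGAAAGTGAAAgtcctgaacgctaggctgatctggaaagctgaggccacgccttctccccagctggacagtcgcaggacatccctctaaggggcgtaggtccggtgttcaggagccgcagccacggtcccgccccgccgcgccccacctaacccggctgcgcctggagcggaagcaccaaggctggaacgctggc
Parp12, chr6:39118300-39118599, minus strand: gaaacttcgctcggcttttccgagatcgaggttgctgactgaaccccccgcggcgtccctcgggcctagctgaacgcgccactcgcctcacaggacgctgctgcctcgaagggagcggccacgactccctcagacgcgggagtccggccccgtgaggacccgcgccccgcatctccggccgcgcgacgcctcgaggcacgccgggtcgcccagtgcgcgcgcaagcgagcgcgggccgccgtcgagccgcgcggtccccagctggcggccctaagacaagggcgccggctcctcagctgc
The capitals in Parp4 are 2 overlapping matches, from -150 to -141 and from -144 to -135 relative to the start. The response element core was found in 3.44% of the 32851 windows of the table. The gamma-activated site core was in 0 of the 7 windows and in 8.3% of all. The Parp12 window held none of these motifs, which says only that these letters are not in that stretch. The GC box was in 5 of the 7 windows and in 35.7% of all. The 7 windows had a GC content between 56.7% and 73.7%, against a median of 52.7% over all windows.

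Parp4, the PARP of the vault particle, was above 0 on all 6 arrays, as were Parp6, Parp9 and Parp14, against 15.2% of all features. As the mean of its 2 spots, its log2 ratio was 0.54 and 0.42 on the Wrn mutant arrays, 0.061 and 0.37 on the PARP-1 null arrays and 0.55 and 0.24 on the double-mutant arrays. The genotypes overlapped, and no value passed (adjusted p = 0.137, 0.345 and 0.112). The spots did not give the same picture: in the double mutant spot 1 was at -0.22 and 0.10 and spot 2 at 1.31 and 0.37.

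Disagreement between spots was shared by the other 2 genes with more than 1 spot. The gap between the spots of a gene on an array ran from 0.16 to 1.53 for Parp4, from 0.013 to 1.19 for Parp14 and from 0.16 to 0.86 for Tnks, and in each the spots had opposite signs on 2 arrays. For Parp14, spot 1 fell to -0.56 on the duplicate double-mutant array where spot 2 stood at 0.62, and on the first double-mutant array spot 2 was listed at exactly 0. The mean near 0 of Parp14 in the double mutant is thus an average of unlike spots. On the Wrn mutant arrays both Parp14 spots were above 0, at 0.33 and 1.13 for spot 1 and 0.56 and 1.28 for spot 2.

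**Figure D5:**
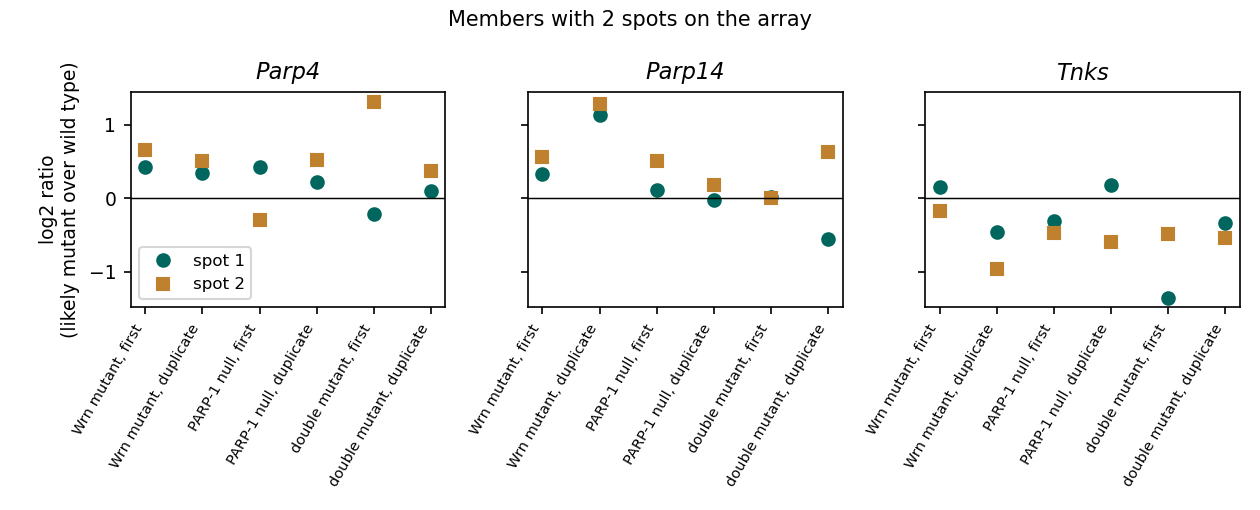
Log2 ratio to wild type (axis) of the 2 single spots of Parp4, Parp14 and Tnks on each of the 6 arrays, 1 panel per gene, with the genotypes marked along the horizontal axis. The spots of a gene part by up to 1.53 for Parp4, 1.19 for Parp14 and 0.86 for Tnks.

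Tnks, tankyrase 1, which modifies the telomere protein TERF1 and the Wnt regulator axin, was below 0 on all 6 arrays as the mean of its 2 spots. That mean was -0.011 and -0.71 on the Wrn mutant arrays, -0.39 and -0.21 on the PARP-1 null arrays and -0.92 and -0.44 on the double-mutant arrays. Spot 1 was above 0 on the first Wrn mutant array (0.15) and the duplicate PARP-1 null array (0.17). On the first double-mutant array spot 1 was at -1.35 and spot 2 at -0.49. The genotypes overlapped. Means were -0.36 ± 0.49 (SD, n = 2), -0.30 ± 0.13 and -0.68 ± 0.34, and none passed (adjusted p = 0.416, 0.474 and 0.129).

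Parp6 and Parp8, related mono-ADP-ribosyltransferases, stayed close to wild type. Parp6 had log2 ratios of 0.21 and 0.40 on the Wrn mutant arrays, 0.28 and 0.094 on the PARP-1 null arrays and 0.067 and 0.090 on the double-mutant arrays. Its genotype means of 0.30 ± 0.13 (SD, n = 2), 0.19 ± 0.13 and 0.079 ± 0.016 did not pass (adjusted p = 0.131, 0.224 and 0.562). Parp8 had log2 ratios of 0.22 and 0.031, 0.075 and 0.21, and -0.12 and 0.40 on the same arrays. The genotypes overlapped fully for Parp8, with adjusted p between 0.634 and 0.700.

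Direct contrasts of the genotypes were then set side by side. None of the 10 members passed in any, and over all features 0.00484% passed for the PARP-1 null against the Wrn mutant (1 feature), 0% for the double mutant against the Wrn mutant, 0% for the double mutant against the PARP-1 null and 0% for the double mutant against the sum of the single mutants. At an unadjusted p under 0.05 the paralogue counts in these 4 contrasts were 1, 2, 0 and 2 of 9, against 8.36%, 14%, 6.83% and 12.5% of all features. For Parp1 the log2 difference from the Wrn mutant was -2.24 for the PARP-1 null (95% interval -2.80 to -1.67, adjusted p = 0.144) and -2.56 for the double mutant (-3.13 to -1.998, adjusted p = 0.105). The second of these passed when exact zeros were set to missing (adjusted p = 0.0469) and when only features without an exact 0 were tested (adjusted p = 0.0296). In the fit of all features even these Parp1 differences missed the threshold, so a missed call does not show that a paralogue was alike in 2 genotypes.

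Arrays of the double mutant lay below both Wrn mutant arrays for Parp2, Parp6, Parp9, Parp12 and Parp14, 5 of 9 paralogues, against 16.2% of all features. They lay above both for Parp3 alone, 1 of 9, against 22.6%. Parp4, Parp8 and Tnks overlapped. All 4 arrays without PARP-1 lay below both Wrn mutant arrays for Parp12 and Parp14, 2 of 9 paralogues, and for Parp1, against 7.95% of all features. The double mutant had the lower mean than the Wrn mutant for 7 of 9 paralogues and the lower mean than the PARP-1 null for 8 of 9. The share of all features was not counted here, but their median difference was 0 in each contrast. Both counts use the same double-mutant arrays, and no paralogue passed in either contrast of the limma fit (lowest adjusted p = 0.323 and 0.772).

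Against the sum of the single-mutant log2 ratios, the double mutant was lower for 8 of 9 paralogues. The share of all features was not counted, but their median departure was 0. The departure was -1.63 for Parp9 (95% interval -2.86 to -0.39, adjusted p = 0.295), -1.24 for Parp12 (adjusted p = 0.495), -0.9999 for Parp14 (adjusted p = 0.418) and -0.41 for Parp6 (adjusted p = 0.355). For Parp2 it was 0.20 and for Parp1 -0.11. Without the duplicate double-mutant array the departures were -1.73 for Parp9, -1.80 for Parp12, -1.01 for Parp14 and -0.42 for Parp6, and those of Parp2 (-0.13) and Parp1 (-0.30) were both negative. A dye bias stays in this contrast, and none of these values passed.

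Of 7 other PARP genes listed, 6 were measured and none passed in a comparison with wild type, where 3.36%, 7.95% and 18.3% of all features did. In the PARP-1 null 1 of the 6 passed as higher with quantile normalisation, with exact zeros set to missing, among features without an exact 0 and without the first PARP-1 null array. Chosen after their values were seen, Parp16, an enzyme of the endoplasmic reticulum, had log2 ratios of 0.21 and 0.38 on the Wrn mutant arrays, 1.17 and 2.77 on the PARP-1 null arrays and 0.93 and 0.75 on the double-mutant arrays, and the interferon-inducible Parp10 was at 0.58 and 1.19, 0.46 and 0.21, and 0.44 and -0.36.

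Several genes that remove or read ADP-ribose passed in the double mutant. Of 17 symbols listed, which hold old and new names of some genes, 11 were measured. Of these 11 genes 4 rose and 2 fell in the double mutant, where 18.3% of all features passed. In the PARP-1 null 1 fell, where 7.95% of all features passed, and none passed for the Wrn mutant. With scaling 2 rose and none fell in the double mutant and 2 rose in the Wrn mutant, and with quantile normalisation 3 rose in the double mutant while 2 rose and 1 fell in the Wrn mutant. The chromatin remodeller gene Chd1l, which is recruited by poly(ADP-ribose), rose to 1.15 ± 0.34 (SD, n = 2, adjusted p = 0.0318), and the hydrolase gene Macrod1 to 0.88 ± 0.23 (adjusted p = 0.0220). Macroh2a2 (0.69) and the ADP-ribose pyrophosphatase gene Nudt9 (0.58) also rose. The macrodomain gene Gdap2 fell in the double mutant (-0.91, adjusted p = 0.0178) and in the PARP-1 null (-0.76, adjusted p = 0.0329). Macroh2a1, a macrodomain histone gene, passed as lower in the double mutant (-0.84, adjusted p = 0.0485). It was similarly low on the single-mutant arrays without passing, at -0.70 and -1.06 (Wrn mutant) and -1.15 and -0.65 (PARP-1 null). Of the genes that passed in the double mutant, only Nudt9 had another sign on single-mutant arrays (-0.15 and -0.051, Wrn mutant). No gene of the list passed in a contrast of genotypes. The main chain-degrading enzyme gene Parg did not pass, with means of 0.56 (Wrn mutant), 0.16 (PARP-1 null) and -0.056 (double mutant). On the first double-mutant array alone the log2 ratios were 1.39 (Chd1l), 1.04 (Macrod1), 0.65 (Macroh2a2), 0.50 (Nudt9), -0.85 (Gdap2) and -0.90 (Macroh2a1). The double-mutant calls were lost without the duplicate array. Calls were also lost when the first double-mutant array or an array of another genotype was left out. The loss is thus not particular to the duplicate.

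Among partners and substrates of the members, 24 of 27 were measured. Of these 1 passed for each single mutant, as lower, and 3 for the double mutant, 1 higher and 2 lower, which is no larger a share than the 18.3% of all features in the double mutant. Xrcc5, which encodes the Ku80 subunit of the end-joining complex, was lower in all 3 genotypes, with means of -0.41 (Wrn mutant), -0.30 (PARP-1 null) and -0.64 (double mutant). In the double mutant Mcrs1 passed as lower (-0.79) and the topoisomerase gene Top1 as higher (0.55). Both had the same sign on the single-mutant arrays without passing. There Mcrs1 was at -0.61 and -0.66 (Wrn mutant) and -0.72 and -0.40 (PARP-1 null). Top1 was at 0.21 and 0.21 (Wrn mutant) and 0.20 and 0.41 (PARP-1 null). No gene of the list passed in a contrast of genotypes. On the first double-mutant array alone Xrcc5 was at -0.66, Mcrs1 at -0.86 and Top1 at 0.51. The double-mutant calls were lost when either array of that genotype was left out, and some when a Wrn mutant array was. The Wrn gene itself did not pass, at 0.71 ± 0.19, -0.12 ± 0.24 and 0.48 ± 0.33 (SD, n = 2) in the 3 genotypes, and the position of its probe relative to the deletion is unknown here.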

How the data were processed

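The 6 arrays, 2 per mutant genotype, were grouped by titles and source labels. The authors deposited 1 log10 ratio per spot for 22393 spots an array. Its base is inferred, since no value exceeds a size of exactly 2. How the authors centred, background-corrected and filtered the ratios, and their direction, was not stated in the labels. Exact zeros made up 16.9% to 23.7% of an array's values. Signal intensities were not used, and precision is limited by the 2 arrays a genotype. Ratios were multiplied by 3.32 to give log2. By the platform annotation 18218 spots had 1 symbol, 16 had several and 4159 had none. Averaging the spots of a gene, with unnamed spots kept singly, gave 20679 features.

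A single limma model (version 3.58.1, R 4.3.3, lmFit and eBayes) held the 6 arrays, with the genotype as its term, and p-values were adjusted by Benjamini-Hochberg. Python 3.11.15 with pandas 2.3.3 and matplotlib 3.10.9 made counts and plots. The code was tested on simulated data. All members were named. For Parp1 and each member that passed, the 3 named genes nearest by root mean square difference were named, and from each context list up to 4 passing genes of largest mean. Macroh2a2, Nudt9, Psmb9 and Ifit2 were added to complete their counts, Parg, Wrn and the other PARP genes for their roles. Members and lists were chosen with earlier results of these data known. All 10 members matched RefSeq by Entrez ID. The array's build is not given, so no array coordinates are printed. No slide or date was available as a batch.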

Additional observations from a re-analysis of the deposited data

How the results depend on the processing

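Each array was left out in turn, and 9 other alternatives were run, of which 2, named genes alone and features without an exact 0, were chosen after seeing the data. For Parp1 the log2 ratio ranged from -2.61 to -2.30 in the PARP-1 null and from -2.97 to -2.59 in the double mutant with an array left out. It did not pass in the PARP-1 null with the replicate block (-2.45, adjusted p = 0.0528), nor when a genotype's own arrays alone were fitted (-2.45, adjusted p = 0.124, and -2.78, adjusted p = 0.129, in the double mutant), where 1 residual degree of freedom is left. For other changes the cause was not tested.

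Against the 694, 1645 and 3794 features called in the Wrn mutant, PARP-1 null and double mutant, scaling gave 1342 for the Wrn mutant and 1211 for the double mutant, and quantile normalisation 1663 and 2189. Zeros set to missing gave 1385 for the Wrn mutant and 3135 for the PARP-1 null, features without an exact 0 gave 1616 and 2920, and named genes alone 128 and 1006. The replicate block gave 0, 0 and 1622, own arrays alone 0 in each, and leaving out an array 0 to 1245, 81 to 983 and 52 to 1803. First and duplicate arrays were not shown to be paired, as their deviations correlated at -0.112, -0.166 and 0.145 between genotypes.

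For the PARP-1 null against the Wrn mutant (1 call) the counts were 6 with scaling, 4 with quantile normalisation, 16 with zeros missing, 2 with the robust prior, 0 with the block and with own arrays alone, 29 without zero features and 0 to 495 with an array left out. For the double mutant against the Wrn mutant (0) they were 3 with scaling, 47 with zeros missing, 2 with the robust prior, 1 with named genes, 61 without zero features and 0 to 546. Against the PARP-1 null (0) they were 1 with quantile normalisation and 0 to 414, and against the sum (0) 300 with quantile normalisation, 305 with zeros missing, 349 without zero features and 0 to 564. Own arrays alone were not run for the sum, where all arrays already enter.

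Of the 9 paralogues, 1 passed in the Wrn mutant with quantile normalisation (Parp2) and without zero features (Parp9), and 0 to 2 with an array left out. In the PARP-1 null 1 passed with quantile normalisation (Parp3) and 0 to 1 with an array left out. In the double mutant the 1 call became 0 with scaling, the replicate block and own arrays alone, 2 with zeros missing and without zero features, and 0 to 1 with an array left out.

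Signs turned for values near 0. Scaling and quantile normalisation turned Parp8 in the PARP-1 null and the double mutant against the Wrn mutant (-0.019, -0.060 and -0.026, -0.087), Parp1 in the double mutant against the PARP-1 null (0.22, 0.057), and Parp1 (0.46, 0.24) and Tnks (0.13, 0.12) against the sum. Quantile normalisation turned Parp14 in the double mutant (-0.0041). With an array left out, Parp8 ranged from -0.12 to 0.40 in the double mutant, and the PARP-1 null minus Wrn mutant difference from -0.081 to 0.11 for Parp8, -0.91 to 0.0042 for Parp9 and -0.29 to 0.41 for Tnks. The double mutant minus Wrn mutant difference ranged from -0.24 to 0.069 for Parp4, -0.25 to 0.27 for Parp8 and -0.67 to 0.027 for Tnks, and minus the PARP-1 null from -0.26 to 0.26 for Parp8. Departures from the sum ranged from -0.30 to 0.080 for Parp1, -0.13 to 0.53 for Parp2, -0.13 to 0.097 for Parp3, -0.39 to 0.13 for Parp8 and -0.37 to 0.33 for Tnks.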
